A study of Mus musculus with 49 samples.

Results

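The genes of the voltage-gated sodium channels (Scn) and voltage-gated calcium channels (Cacn) were followed while mouse embryonic stem cells turned into neural cultures. They were all protein-coding rows of the count table whose symbol began with Scn and a digit, or with Cacn. This gave 40 genes among 52550 rows, of which 21950 were protein coding: 14 sodium channel genes and 26 calcium channel genes. Symbols alone decided which rows were taken, though the gene family was chosen with earlier results of these data known.

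The cells were ES-D3, an established mouse embryonic stem cell line, in the neural embryonic stem cell test, a culture assay for effects of chemicals on nervous system development. After 3 days as embryoid bodies, which are floating cell aggregates, the cultures received 2 µM fluoxetine or 90 µM venlafaxine, starting on day 3 and lasting until harvest on day 7 or day 13. Fluoxetine blocks reuptake of serotonin, and venlafaxine that of serotonin and noradrenaline. PolyA RNA of 49 cultures was sequenced with a strand-specific kit, in 7 groups of 7 libraries: controls on days 0, 7 and 13, fluoxetine on days 7 and 13, and venlafaxine on days 7 and 13. Each drug was given at 1 concentration, all groups came from the same cell line, and the controls are called untreated here. Per the labels each condition had 8 samples, of which 7 are analysed here. No source used here tells whether controls received a solvent or whether the 7 came from separate differentiations. Every p-value therefore measures only the spread between these libraries, which may be technical.

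A voltage-gated sodium channel is built around a large alpha subunit that forms the pore and opens when the membrane depolarizes, which starts the action potential. Small beta subunits with an immunoglobulin-like domain tune its gating and hold it in place. A voltage-gated calcium channel has a pore-forming alpha1 subunit, a cytoplasmic beta subunit and an extracellular alpha2delta subunit that bring it to the membrane. Its calcium current triggers transmitter release, firing patterns and gene expression in neurons. Genes named Cacng were first classed as calcium channel gamma subunits, and most of them are better known as partners of AMPA-type glutamate receptors.

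Library totals ran from 14059811 to 29225775 counts, and mitochondrial transcripts took 1.305% to 2.009% of counts. Levels are given as CPM, counts scaled to library size with TMM factors. Where genes are compared with each other, the level is CPM per kb of exon. The 8 pluripotency markers summed to 6290 to 6700 CPM on day 0 and to 179 to 204 CPM in untreated cultures of day 7. The 10 neural progenitor markers rose from 664 to 708 CPM on day 0 to 2820 to 3120 CPM on day 7, and stood at 1840 to 2740 CPM on day 13. The 14 neuron markers summed to 326 to 337, 1760 to 2430 and 6420 to 8700 CPM on the 3 days. In each group 1 library lay farthest from its group's median profile: replicate 7 of day 0, replicates 5 (untreated), 4 (fluoxetine) and 5 (venlafaxine) of day 7, and replicates 4, 5 and 1 in that order of day 13. Results that rest on these libraries are given with and without them.

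Most of the channel genes were low or silent in stem cells and rose in both intervals of the untreated course. The summed level of the 40 genes went from a median of 216 CPM on day 0 (212 to 226) to 444 CPM on day 7 (406 to 471) and 2270 CPM on day 13 (1990 to 2590). Per 1000 CPM of neuron markers the sum was 638 to 669 CPM on day 0, 194 to 230 on day 7 and 291 to 315 on day 13. The day 0 ratio rests largely on single genes: Stmn2 gave 180 to 191 CPM of the neuron marker sum, and Cacng7 77.7 to 82.8 CPM of the channel sum. In such bulk RNA, more cells of a type and more RNA per cell cannot be told apart. A filter on low counts left 32 of the 40 genes for testing in the untreated course. From day 0 to day 7, 24 rose and 6 fell by edgeR's quasi-likelihood test at a Benjamini-Hochberg adjusted p under 0.05 over all 16969 tested genes. Of all tested genes 88.8% were called, 45.3% higher and 43.4% lower, so the share of channel genes called was near the background and their balance was toward higher. The median log2 fold change of the 32 was 1.75, and that of all tested genes 0.03. From day 7 to day 13, 30 of 32 rose and none fell, against 83.0% of all tested genes called and 42.1% higher. The median was then 2.2 for the 32 and 0.01 for all tested genes. A gene low in all 3 groups could not pass the filter, so these counts do not speak for all 40. A gene could also pass through its highest day alone. Cacng3, Cacna1i and Cacna2d4 did not pass in the fit of the day 7 groups, and Cacng6 passed in the fit of neither drug day. For these genes the rise to day 13, or the fall from day 0, was partly set by the filter.

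**Figure D1:**
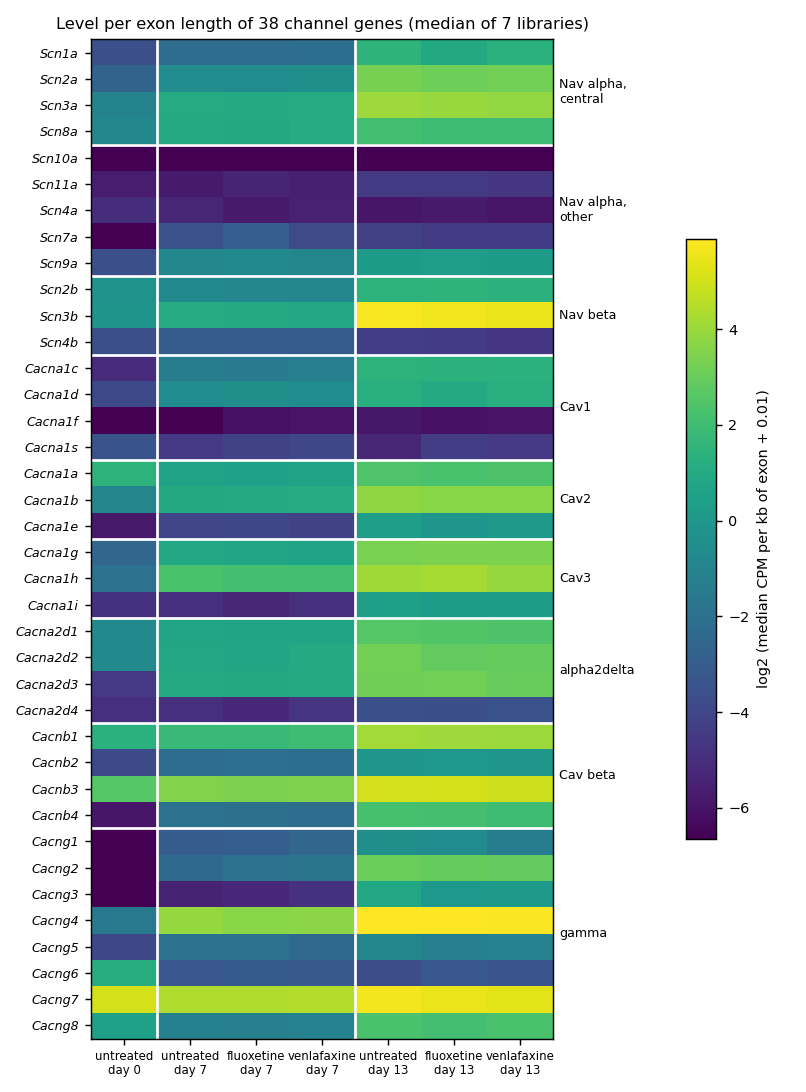
Colour gives log2 of the median CPM per kb of exon plus 0.01 for 38 of the channel genes (rows, by subunit class) in the 7 groups (columns, 7 libraries each). The 3 columns of day 13 are brightest in most rows, and the drug columns of a day look much like the untreated column beside them, with Cacng6 and Cacna1s brightest on day 0.

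The 4 sodium channel alpha genes of the central nervous system rose in both intervals. Scn3a, the alpha gene known for its high level in the embryonic brain, measured 5.18 to 6.37 CPM on day 0 (median 5.94), 20.4 to 31.4 CPM on day 7 (25.7) and 173 to 250 CPM on day 13 (207). Scn2a, an alpha subunit of axons that is known to precede Scn8a at the initial segment during development, measured 1.45 to 2.40, 6.16 to 9.33 and 109 to 147 CPM. The libraries of the 3 days did not overlap for either gene. The log2 fold change from day 0 to day 7 was 2.12 ± 0.111 (SE) for Scn3a and 2.10 ± 0.136 for Scn2a. From day 7 to day 13 it was 3.05 ± 0.0851 for Scn3a and 3.98 ± 0.0850 for Scn2a. Scn8a, the main alpha subunit of mature initial segments and nodes of Ranvier, measured 7.65 to 10.8, 27.2 to 33.3 and 57.8 to 77.3 CPM, with log2 fold changes of 1.73 ± 0.0797 and 1.13 ± 0.0670. It was the highest of the 4 in CPM on day 0 and the third on day 13. Scn1a, which is known for its part in the firing of inhibitory interneurons, was lowest, at 0.479 to 1.04, 2.06 to 3.16 and 22.3 to 42.9 CPM.

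These rises changed the make-up of the central alpha genes. Per exon length, Scn8a supplied a median of 46.8% of their summed level on day 0 (40.2% to 50.5%), 41.1% on day 7 (36.3% to 43.1%) and 12.2% on day 13 (11.5% to 14.2%). The share of Scn2a was 12% on day 0, 13.3% on day 7 and 29.4% on day 13 (28.3% to 30.9%). Scn3a held 37.6%, 41.3% and 49.3% on the 3 days, and was the largest of the 4 in every day 13 library. The day 13 ranges of Scn8a and Scn2a lay outside those of day 7, and shares over the longest transcript gave the same order on day 13 (47.6% for Scn3a, 31.0% for Scn2a, 12.4% for Scn8a).

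Scn9a, known for pain-sensing neurons of the periphery, measured 0.718 to 1.69, 6.69 to 9.91 and 10.5 to 17.4 CPM, and rose in both intervals (log2 fold changes 3.07 ± 0.165 and 0.82 ± 0.116). Scn7a, an atypical channel known as a sensor of sodium level, had 2 counts in the 7 day 0 libraries and medians of 0.576 CPM on day 7 and 0.311 CPM on day 13. Scn4a of skeletal muscle and Scn11a of sensory neurons stayed under 0.6 CPM in each of the 49 libraries. Scn10a, also of sensory neurons, had 9 counts in all, and 0 counts in the day 0 libraries. This allows up to 0.0231 CPM before TMM factors (3 counts over the raw group total, counting error only). The day 0 TMM factors of 0.844 to 0.859 put the limit somewhat higher. The 8 peripheral sensory neuron markers summed to 26.6 to 31.7 CPM on day 0 and 34.4 to 75.2 CPM on day 13, and whether Scn9a moved with them was not tested.

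Scn3b made up most of the beta subunit level by day 13. It measured 4.40 to 5.39 CPM on day 0, 9.43 to 14.4 CPM on day 7 and 241 to 335 CPM on day 13, with no overlap between days. Its log2 fold change was 1.31 ± 0.115 in the first interval and 4.60 ± 0.0859 in the second. Scn2b, a beta subunit that links covalently to the alpha subunit, fell first and rose later. Scn2b measured 3.22 to 5.19, 1.85 to 3.20 and 10.6 to 16.0 CPM (-0.61 ± 0.138, then 2.35 ± 0.125; the first fall had an adjusted p of 0.000221 by edgeR). Per exon length, Scn3b gave 18.7% of the beta level on day 0 (16.8% to 21.3%), 55.6% on day 7 (48.2% to 61.1%) and 90.2% on day 13 (89.3% to 91.4%). Scn4b, known from adult neurons with fast repetitive firing, stayed at or under 0.803 CPM in the untreated libraries.

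**Figure D2:**
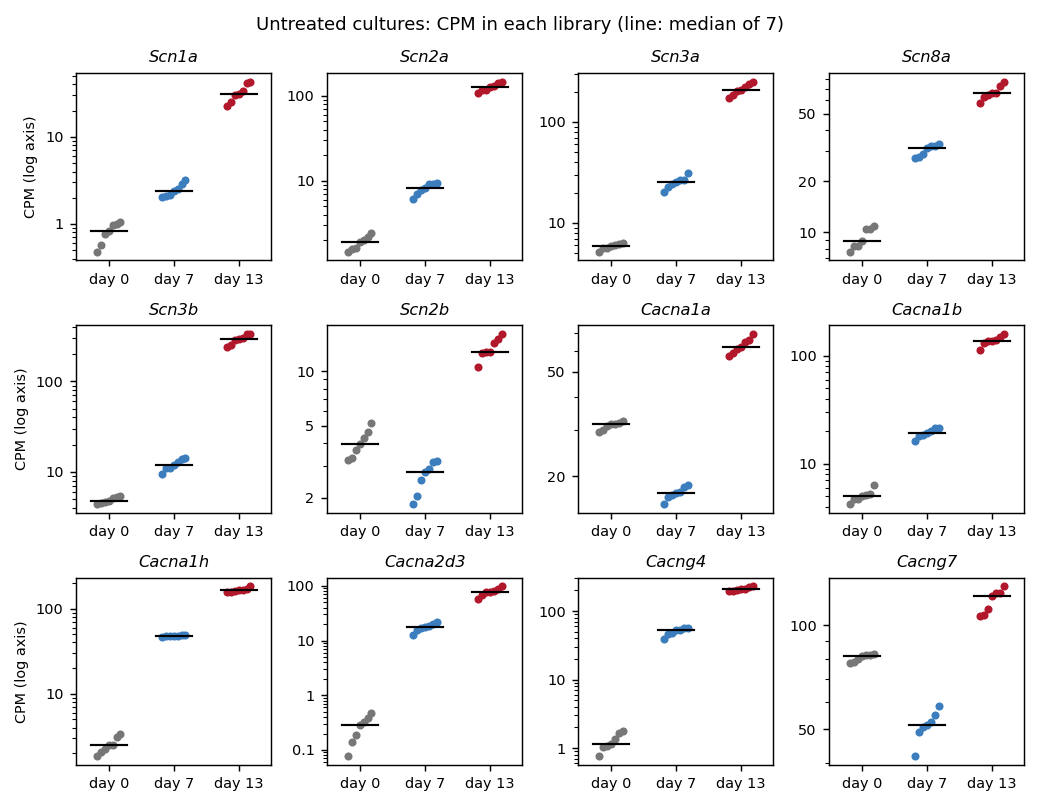
Points are CPM in each of 7 untreated libraries per day (log axis, own scale per panel) sorted by level within a day, and lines are medians, for 12 channel genes. Scn2b, Cacna1a and Cacng7 are lowest on day 7, and the other 9 genes rise from day 0 to day 7 to day 13 without overlap between days.

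The L-type alpha1 genes of brain, Cacna1c and Cacna1d, came up from low levels. Cacna1c, whose channel couples calcium entry to gene expression, measured 0.276 to 0.480 CPM on day 0, 7.17 to 9.03 on day 7 and 50.9 to 66.9 on day 13. Its log2 fold changes were 4.39 ± 0.131 and 2.90 ± 0.0653. Cacna1d, whose channel opens at less depolarized voltages, measured 0.320 to 1.07, 7.10 to 13.7 and 26.2 to 34.6 CPM (3.61 ± 0.187 and 1.71 ± 0.117). Cacna1d shares exon sequence with Chdh on the opposite strand, a gene with 4818 counts over all libraries against 16371 for Cacna1d, and no source used here gives the strand setting of the counting. Per exon length, Cacna1d led the class on day 7 with 63.5% (57.3% to 70.4%) and Cacna1c on day 13 with 53.4% (52.5% to 56.8%). Cacna1s of skeletal muscle and Cacna1f of retina were not tested in any comparison. Cacna1s measured 0.343 to 1.14 CPM on day 0 and at most 0.265 CPM in untreated cultures of day 13, and Cacna1f had 49 counts in all.

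In the presynaptic Cav2 class the leading gene changed. Cacna1a, the P/Q-type pore of transmitter release, measured 29.5 to 32.6 CPM on day 0, 15.7 to 18.5 on day 7 and 57.5 to 69.7 on day 13. It fell by 0.85 ± 0.0461 on the log2 scale in the first interval and rose by 1.87 ± 0.0444 in the second. Cacna1b, the N-type pore, measured 4.22 to 6.36, 16.1 to 21.5 and 113 to 159 CPM, rising by 1.95 ± 0.0918 and 2.83 ± 0.0692. Cacna1a therefore gave 84.3% of the class level per exon length on day 0 (80.0% to 86.7%) and 26.0% on day 13 (25.5% to 28.7%), and Cacna1b 15.4% and 66.7%. On day 7 the order of these genes depended on the length used: Cacna1a held 42.0% over the union of exons and 49.9% over the longest transcript, against 55.7% and 46.9% for Cacna1b. Cacna1e, the R-type pore, was at 0.0768 to 0.240 CPM on day 0 and 22.9 to 46.7 CPM on day 13, with 1 untreated day 7 library at 5.09 CPM and the other 6 at 0.758 to 1.91.

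The T-type genes, whose channels open near resting voltage, were led by Cacna1h. It measured 1.84 to 3.35 CPM on day 0, 46.1 to 49.6 CPM on day 7 and 158 to 184 CPM on day 13. Its first rise of 4.24 ± 0.0698 was larger than its second of 1.80 ± 0.0454. Cacna1g measured 1.58 to 1.92, 16.4 to 19.9 and 83.9 to 112 CPM (3.41 ± 0.0996 and 2.47 ± 0.0623). Cacna1i had another course: it stayed at 0.0536 to 0.415 CPM on days 0 and 7, was not called in the first interval (-0.39 ± 0.413), and then reached 11.9 to 19.6 CPM (6.21 ± 0.216).

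Cacnb3, a beta subunit known from neurons, measured 22.2 to 25.5, 42.8 to 49.8 and 125 to 138 CPM, and Cacnb1, first known from skeletal muscle, 10.9 to 12.2, 14.1 to 19.2 and 67.4 to 91.7 CPM. Cacnb4, whose loss causes the lethargic phenotype of mice, went from 8 counts in the 7 day 0 libraries to 1.72 to 3.38 CPM on day 7 and 32.5 to 61.5 CPM on day 13 (4.35 ± 0.173 in the second interval). Cacnb3 kept the largest share of the beta level per exon length, at 69.8% on day 0 and 57.9% on day 13. Of the alpha2delta genes, Cacna2d1 and Cacna2d2 code for the proteins that bind gabapentin. Cacna2d1 measured 6.90 to 10.3, 18.3 to 22.8 and 62.5 to 86.8 CPM, and Cacna2d2 3.61 to 6.35, 9.37 to 15.6 and 63.2 to 95.5 CPM. Cacna2d3 was near absent on day 0, at 0.0768 to 0.479 CPM, and then measured 12.6 to 21.9 and 58.3 to 98.8 CPM (5.94 ± 0.242 and 2.18 ± 0.11). Its share of the alpha2delta level went from 2.29% on day 0 to 36.8% on day 7 and 36.6% on day 13. Over the longest transcript the share of Cacna2d3 was 47.5% on day 7 and 47.8% on day 13. The day 13 order depended on the length used: Cacna2d2 held 38.8% over the union of exons and 29.6% over the longest transcript. Cacna2d4, known from retina, was not called in the first interval and reached 0.542 to 1.38 CPM on day 13.

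The gamma genes held both the highest stem cell level and the clearest falls. Cacng7, which codes for an AMPA receptor partner of the second type, was at 77.7 to 82.8 CPM on day 0, 41.8 to 58.4 on day 7 and 106 to 130 on day 13 (-0.64 ± 0.0565, then 1.2 ± 0.0556). Cacng8, an AMPA receptor partner known from hippocampus, measured 2.08 to 4.28, 0.375 to 1.93 and 10.9 to 12.4 CPM (-1.68 ± 0.203, then 3.48 ± 0.182). Cacng6, a relative of the muscle gamma subunit, went from 3.44 to 5.88 CPM on day 0 to 0.0478 to 0.321 CPM on day 7 (-4.48 ± 0.247) and at most 0.275 CPM on day 13. These 3 genes lie side by side on chromosome 7 (Cacng7 from 3332955 to 3368221, Cacng8 from 3390683 to 3415648 and Cacng6 from 3424195 to 3435667, plus strand of GRCm38), and all 3 fell from day 0 to day 7. Cacng4, a partner of AMPA receptors known from the developing brain, measured 0.758 to 1.76, 39.4 to 57.4 and 197 to 231 CPM (5.35 ± 0.117 and 2.07 ± 0.0672). Cacng2, which codes for stargazin, had 1 count in the 7 day 0 libraries, 0.765 to 1.68 CPM on day 7 and 42.3 to 52.4 CPM on day 13 (5.33 ± 0.115 in the second interval). Its exons overlap an antisense gene, A730060N03Rik, with 902 counts against 20273 for Cacng2 over all libraries. Cacng3 had 0 counts on day 0, which allows up to 0.0231 CPM over the group before TMM factors. It measured at most 0.0864 CPM on day 7 and 2.87 to 6.93 CPM on day 13. Cacng1 and Cacng5 stayed at or under 2.75 CPM in every untreated library.

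**Figure D3:**
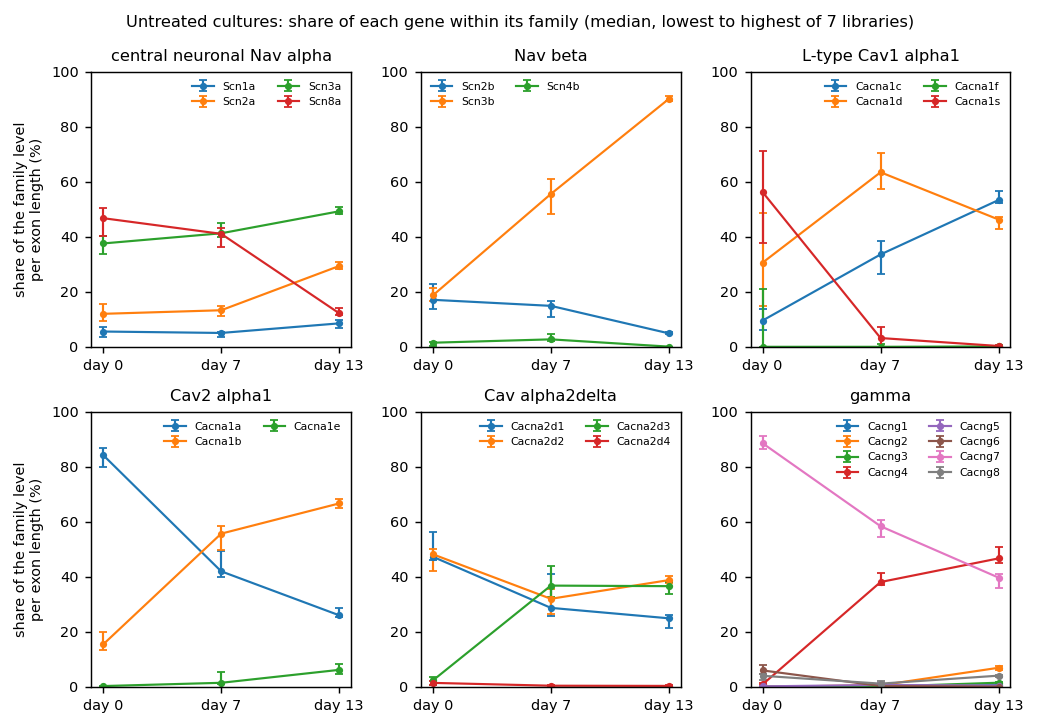
Each panel gives the share (%) of the genes shown in the summed level per exon length of its subunit class in untreated cultures on days 0, 7 and 13, as the median of 7 libraries with bars from the lowest to the highest. Scn8a, Cacna1a and Cacng7 lead their classes on day 0, and Scn3a, Scn3b, Cacna1b and Cacng4 on day 13.

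Ordered by level per exon length, untreated cultures of day 13 were led by auxiliary genes. Cacng4 stood at 58.9 CPM per kb (55.1 to 64.6), Scn3b at 53.9 (44.1 to 61.4) and Cacng7 at 49.9 (43.5 to 53.2). These 3 overlapped their neighbours in the order, and over the longest transcript Scn3b came first, with 70.9 CPM per kb against 60.2 for Cacng4. Cacnb3 followed at 32.5 CPM per kb (31.3 to 34.4), apart from the genes on both sides. Cacnb1 at 17.4, the first pore gene Cacna1h at 16.8, Scn3a at 16.6 and Cacna1b at 13.7 CPM per kb overlapped in series. Below them came Cacna1g at 10.2, Scn2a at 9.89, Cacna2d2 at 9.21, Cacna2d3 at 8.87 and Cacng2 at 8.21 CPM per kb, again with overlap between neighbours. Cacna2d1 at 6.03, Cacna1a at 5.44, Scn8a at 4.22, Scn1a at 2.79 and Cacna1c at 2.73 CPM per kb were lower, and 11 genes lay under 0.6 CPM per kb.

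Most genes on a list of channel partners and related channels rose in the second interval, and the first was mixed. Of all tested genes, 45.3% rose and 43.4% fell in the first interval, and 42.1% rose in the second. The list of 30 genes, called partners here, held genes for anchoring, trafficking and control of the channels. It also held other channels: the sodium leak channel with its complex (Nalcn, Unc79, Unc80, Fam155a) and calcium release channels (Ryr1, Ryr2, Ryr3). Of the 30, 28 were tested: 16 rose and 9 fell from day 0 to day 7, and 26 rose and 2 fell from day 7 to day 13. In the first interval Ank2, an ankyrin that anchors membrane proteins, rose by 2.58 ± 0.0619 on the log2 scale. Nfasc, the adhesion protein gene of the axon initial segment, rose by 2.96 ± 0.0716, and Unc79, of the sodium leak channel complex, by 4.75 ± 0.158. Sptbn4, the spectrin gene of the initial segment, fell by 3.36 ± 0.0812. Rest, a repressor of neuronal genes outside neurons that is known to act on Scn2a, fell from 549 to 648 CPM on day 0 to 75.8 to 83.4 on day 7 (-2.89 ± 0.0735) and 45.4 to 71.6 on day 13 (-0.60 ± 0.0722). In the second interval the smallest p-values were those of Rims1, an active zone gene that binds calcium channels (4.73 ± 0.0819), Nalcn, the sodium leak channel (4.07 ± 0.0771), Sptbn4 (3.51 ± 0.0802), Nedd4l, a ubiquitin ligase that acts on sodium channels (2.15 ± 0.0537), and Fam155a, a Nalcn partner (3.60 ± 0.0915).

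The start regions of the channel genes were read for short motifs, since many of the genes rose together. RefSeq gave 41 windows for 30 of the 40 genes, each with 250 bases before and 50 after an annotated start on GRCm38.p6, beside 32851 windows of all genes. A motif was counted on either strand. The E-box CAGCTG, a core motif of neurogenic helix-loop-helix factors, which reads the same on both strands, was in 13 windows of 12 genes, 31.7% of the windows against 16.3% of all. The E-box CAGATG was in 17.1% against 17.2%, the SOX motif ACAAAG in 24.4% against 18.7%, and the GC box GGGCGG in 39.0% against 35.7%. The TATA box TATAAA was in 4.88% of the windows, of Scn2a and Cacna1d, against 13.6%. Neither the left part of the REST element, TTCAGCACC, nor the cyclic AMP element TGACGTCA was in any of the 41 windows, against 0.371% and 1.79% of all, and the right part GGACAG was in 17.1% against 22.2%. Both absent motifs are so rare that 41 windows would often hold none, and sequence outside the windows was not read. These 8 motifs were the ones counted, 9 genes had more than 1 window, and a match is not evidence of binding. The windows of calcium channel genes held a median of 15 CG dinucleotides and those of sodium channel alpha genes 7, against 7 in all windows.

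Shown are 250 bases before a start that hold CAGCTG (in capitals) and lie outside annotated exons, 5′ to 3′ on the gene's strand, the minus strand of GRCm38.p6 in each case. Cacna1b (chr2:24763153-24763402), Cacna1d (chr14:30353487-30353736), Cacna2d3 (chr14:29721865-29722114) and Cacnb4 (chr2:52558612-52558861) rose in both intervals. Scn11a (chr9:119825457-119825706) is a contrast: its window holds the same motif while its level stayed at or under 0.275 CPM in untreated cultures. Other genes with the motif in a window also did not rise in both intervals. Cacng8 fell in the first, and Cacna1s and Scn7a were too low to test there. Whether the motif goes with a rise was not tested. The sequences of the first 3 hold 29, 50 and 30 CG dinucleotides, and those of Cacnb4 and Scn11a 4 and 3. This depends on the start shown: full windows at other annotated starts held 27 and 40 CG dinucleotides for Cacnb4, and 4 for Cacna1d.
Cacna1b: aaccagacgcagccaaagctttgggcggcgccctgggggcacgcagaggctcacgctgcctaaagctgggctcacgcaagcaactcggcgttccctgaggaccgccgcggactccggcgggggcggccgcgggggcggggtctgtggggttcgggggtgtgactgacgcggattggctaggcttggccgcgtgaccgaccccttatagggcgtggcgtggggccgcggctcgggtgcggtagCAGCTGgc
Cacna1d: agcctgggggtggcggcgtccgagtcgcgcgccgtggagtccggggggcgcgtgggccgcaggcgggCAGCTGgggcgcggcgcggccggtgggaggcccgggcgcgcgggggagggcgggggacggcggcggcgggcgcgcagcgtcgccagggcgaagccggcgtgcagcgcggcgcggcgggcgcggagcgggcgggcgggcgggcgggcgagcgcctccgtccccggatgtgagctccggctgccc
Cacna2d3: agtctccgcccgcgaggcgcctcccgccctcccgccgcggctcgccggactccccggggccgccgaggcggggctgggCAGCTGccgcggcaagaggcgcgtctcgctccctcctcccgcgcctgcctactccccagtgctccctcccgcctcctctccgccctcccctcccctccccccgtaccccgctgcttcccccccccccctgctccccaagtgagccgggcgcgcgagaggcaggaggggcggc
Cacnb4: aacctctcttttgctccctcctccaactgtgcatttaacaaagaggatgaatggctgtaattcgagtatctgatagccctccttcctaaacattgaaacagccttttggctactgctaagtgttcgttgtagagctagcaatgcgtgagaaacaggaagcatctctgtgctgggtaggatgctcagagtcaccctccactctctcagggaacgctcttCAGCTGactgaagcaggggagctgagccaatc
Scn11a: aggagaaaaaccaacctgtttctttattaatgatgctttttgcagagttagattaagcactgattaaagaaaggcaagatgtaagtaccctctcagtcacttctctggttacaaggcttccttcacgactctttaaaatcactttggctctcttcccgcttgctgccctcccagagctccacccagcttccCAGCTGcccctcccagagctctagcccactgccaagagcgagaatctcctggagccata

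Whether fluoxetine changed the channel genes was asked against untreated cultures of the same day. On day 7, after 4 days of exposure, no gene of the 30 tested passed the test, where 0.0513% of 15601 tested genes were called. An unadjusted p under 0.05 was held by 2 of the 30, against 1424 of all 15601, and DESeq2 called none either. The smallest p belonged to Scn7a, at 0.716 to 1.08 CPM with fluoxetine (median 0.915) and 0.207 to 0.677 CPM in untreated cultures (0.576). The groups did not overlap, the log2 fold change was 0.66 ± 0.191, and the adjusted p was 0.265, at a depth of 81 and 124 counts in the 2 groups. Cacna1h measured 37.5 to 46.2 CPM with fluoxetine (median 43.5) and 46.1 to 49.6 without (47.5), with 7 of 7 libraries under the untreated median (-0.17 ± 0.0595, adjusted p = 0.398). For Cacng4 the difference was -0.16 ± 0.0916 and for Cacna1a -0.11 ± 0.0760. None of the 30 passed after adjustment over all 15601 tested genes.

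On day 13, after 10 days of fluoxetine, again none of 32 tested genes passed, against 0.116% of 16397 tested genes. An unadjusted p under 0.05 was held by 6 of the 32, against 2312 of all 16397, and 2 of the 32 were called by DESeq2. Of the 32 differences 8 were above 0 (25.0%), against 48.2% of all tested genes, and the median was -0.1. Cacng3 measured 1.78 to 3.68 CPM with fluoxetine (median 2.79) and 2.87 to 6.93 CPM in untreated cultures (5.06). All 7 libraries lay under the untreated median, and the log2 fold change was -0.78 ± 0.195 (95% interval -1.16 to -0.40, adjusted p = 0.0682). Scn1a measured 18.5 to 32.1 CPM against 22.3 to 42.9 CPM (-0.43 ± 0.151, adjusted p = 0.177), and Cacna2d2 53.4 to 76.4 CPM against 63.2 to 95.5 CPM (-0.32 ± 0.121, adjusted p = 0.203). For abundant genes the intervals were narrow: -0.31 to 0.04 for Scn3b, -0.24 to 0.11 for Scn3a and -0.15 to 0.06 for Cacng7. Without fluoxetine replicates 5, 6 and 7, which stood apart in an earlier analysis of these data, the count was still 0. DESeq2 called Cacng3 among its 2, and a fit over all 49 libraries called Cacng3 and Scn1a.

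Venlafaxine lowered 1 channel gene by day 7. This was Cacna1h, at 33.9 to 48.1 CPM (median 40.9) against 46.1 to 49.6 CPM (47.5) in untreated cultures, with 6 of 7 libraries under the untreated median and 1 at 48.1 CPM inside the untreated range. The log2 fold change was -0.26 ± 0.0602 with an adjusted p of 0.0117, and 1 of 30 tested genes compares with 3.84% of all tested genes called and 1.94% lower. The gene lies on chromosome 17 from 25374285 to 25433783, minus strand. Without the farthest library of each group (replicates 5, 4 and 5 of the untreated, fluoxetine and venlafaxine groups) the difference was -0.23 with an adjusted p of 0.0553, which misses the threshold. Small p-values were also those of Cacna1g (12.1 to 17.3 against 16.4 to 19.9 CPM, -0.27 ± 0.0850, adjusted p = 0.0723) and Scn3b (7.72 to 11.5 against 9.43 to 14.4 CPM, -0.28 ± 0.104, adjusted p = 0.141). None of these passed the test. Among the channel partners Fgf11, a fibroblast growth factor homologue of a family that binds sodium channels, was the only one of 28 called, at 5.15 to 10.2 CPM against 8.43 to 12.7 CPM (-0.60 ± 0.121, adjusted p = 0.00439).

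On day 13 venlafaxine lowered 8 channel genes and raised 1, of 32 tested. This is 28.1% of those tested, against 22.9% of all tested genes called, 11.3% lower and 11.6% higher, so the share called was near the background and the direction was mostly down. In all, 28 of the 32 differences were below 0 and the median was -0.20, against -0.01 over all tested genes. An unadjusted p under 0.05 was held by 16 of the 32, against 6312 of all 16397 tested genes. The 8 that passed the test and fell were auxiliary genes, but pore genes leaned down too. All 4 central sodium channel alpha genes were below 0 (median -0.21), as were all 3 Cav2 genes (-0.22). The 2 tested L-type genes (-0.1) and 2 of 3 T-type genes (-0.15) were below 0 as well. DESeq2 also called the pore genes Cacna1e and Scn3a, beside Cacna2d3. No group pair was free of overlap. Without a filter on low counts 3 of the 9 were called (Scn3b, Cacng3 and Cacng7), and in a fit of these groups alone 6, without the Cacnb genes. Without the farthest library of each group 8 of the 9 were called, Cacnb3 being lost. With the replicate number as a block 0 of the 9 were called. Effects were small, between -0.14 and -0.67 on the log2 scale for the genes that fell.

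Scn3b measured 178 to 262 CPM with venlafaxine (median 251) and 241 to 335 CPM in untreated cultures (294). All 7 treated libraries lay under the untreated median (-0.33 ± 0.0899, adjusted p = 0.0190). It lies on chromosome 9 from 40269217 to 40291618, plus strand. Scn2b was not called (-0.18 ± 0.0909). The 4 central sodium channel alpha genes were not called either: the differences were -0.29 ± 0.150 for Scn1a, -0.20 ± 0.107 for Scn2a, -0.23 ± 0.0871 for Scn3a and -0.17 ± 0.0899 for Scn8a, all below 0. The smallest adjusted p among these was 0.0558, for Scn3a at 145 to 210 CPM against 173 to 250 CPM.

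Of the alpha2delta genes, Cacna2d1 measured 59.4 to 69.5 CPM (median 64.2) against 62.5 to 86.8 CPM (74.8), with 7 of 7 libraries under the untreated median (-0.22 ± 0.0727, adjusted p = 0.0350). Cacna2d2 measured 39.1 to 74.1 CPM (median 59.5) against 63.2 to 95.5 CPM (73.2), with 6 of 7 under it (-0.44 ± 0.122, adjusted p = 0.0204). Cacna2d3, at 41.4 to 73.2 against 58.3 to 98.8 CPM, missed the threshold (-0.37 ± 0.136, adjusted p = 0.0539). Of the beta genes, Cacnb4 measured 27.4 to 39.3 CPM (median 35.5) against 32.5 to 61.5 CPM (42.8), 7 of 7 under the untreated median (-0.44 ± 0.132, adjusted p = 0.0257). The lowest venlafaxine libraries lay under the untreated range, and the others in its lower part. Cacnb1 measured 56.3 to 79.8 against 67.4 to 91.7 CPM (-0.20 ± 0.0714, adjusted p = 0.0465) and Cacnb3 104 to 131 against 125 to 138 CPM (-0.14 ± 0.0484, adjusted p = 0.0416), each with 6 of 7 libraries under the untreated median. Cacnb2 differed by 0.10 ± 0.116 and was not called. On GRCm38, Cacna2d1 lies on chromosome 5 from 15934691 to 16374511 (plus strand), Cacna2d2 on chromosome 9 from 107399612 to 107529343 (plus) and Cacnb4 on chromosome 2 from 52428320 to 52676831 (minus). Cacnb1 lies on chromosome 11 from 98001508 to 98023034 (minus) and Cacnb3 on chromosome 15 from 98632220 to 98644530 (plus).

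Of the gamma genes, Cacng7 had the smallest p-value of all channel genes in this comparison, with 89.0 to 115 CPM (median 101) against 106 to 130 CPM (122). All 7 libraries lay under the untreated median (-0.23 ± 0.0546, adjusted p = 0.0122). Cacng3 measured 2.07 to 4.45 CPM (median 2.96) against 2.87 to 6.93 CPM (5.06), also 7 of 7 (-0.67 ± 0.193, adjusted p = 0.0230). It lies on chromosome 7 from 122670492 to 122769393, plus strand. Cacng4, the gamma gene of highest level, was not called, with -0.09 ± 0.0600 (164 to 227 against 197 to 231 CPM). The fluoxetine libraries of day 13, compared with the same 7 controls, held Cacng3 at a like level with a median of 2.79 CPM, and Cacng7 at 112 CPM.

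**Figure D4:**
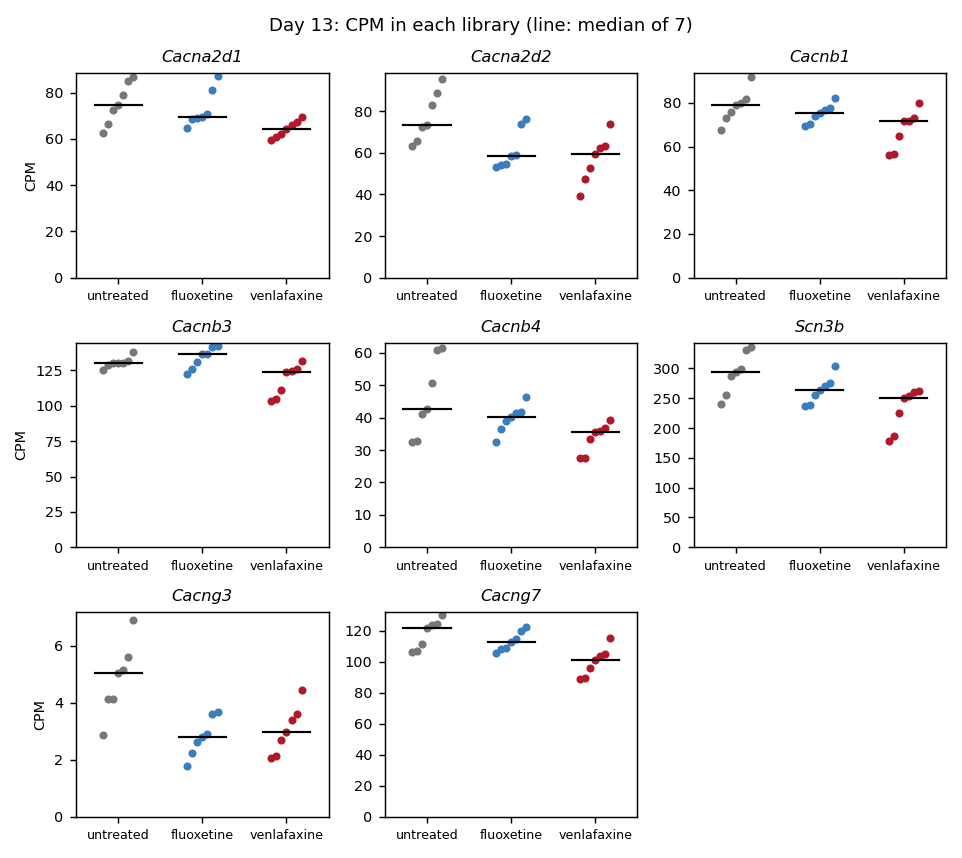
Points are CPM in each day 13 library (linear axis from 0) of untreated, fluoxetine and venlafaxine cultures, 7 each, with lines at the medians, for the 8 channel genes lower with venlafaxine than in untreated cultures. The venlafaxine medians lie under the untreated ones, and every panel shows overlap with the untreated points.

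Markers of cell types moved in the same venlafaxine libraries, where 11.6% of all tested genes were called higher and 11.3% lower. Of 14 neuron markers 11 were lower and none higher, with a median of -0.29, and they summed to 4950 to 7240 CPM against 6420 to 8700 CPM in untreated cultures. Of 8 cell cycle genes 6 were higher (summed 789 to 1170 against 481 to 878 CPM), of 9 tested oligodendrocyte lineage genes 6 (797 to 1270 against 435 to 943 CPM), and of 10 astrocyte genes 4 with 1 lower (1180 to 1380 against 1020 to 1200 CPM). Of 10 progenitor genes 2 were higher and 1 lower (2290 to 2870 against 1840 to 2740 CPM), of 8 pluripotency genes 2 were higher (178 to 311 against 110 to 272 CPM), and of 6 tested visceral endoderm genes 2 were higher (81.0 to 113 against 66.1 to 93.1 CPM). No peripheral sensory neuron marker was called (22.0 to 60.0 against 34.4 to 75.2 CPM), and none of the 8 tested heart and skeletal muscle markers (7.33 to 10.5 against 6.84 to 11.6 CPM). The 40 channel genes summed to 1610 to 2260 CPM with venlafaxine (median 2050), 1990 to 2590 CPM in untreated cultures (2270) and 2020 to 2380 CPM with fluoxetine (2100). Per 1000 CPM of neuron markers the channel sum was 305 to 325 CPM with venlafaxine, 291 to 315 in untreated cultures and 299 to 325 with fluoxetine, with overlap between the groups. With fluoxetine on day 13 all 14 neuron markers also lay below untreated cultures (median -0.15), and none was called. The part of cell type make-up in the lower channel levels was not tested.

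The channel partners showed the same direction. Of 29 tested, 10 were lower and 1 higher with venlafaxine on day 13, and 27 of 29 differences were below 0. Of all tested genes 11.3% were lower and 11.6% higher, and 48.7% of differences were above 0. Calm3 and Calm2, genes of calmodulin, the calcium sensor of both channel families, fell by 0.22 ± 0.0511 and 0.21 ± 0.0493 on the log2 scale. Cabp1, a calmodulin-like regulator of calcium channels, fell by 0.53 ± 0.130, Stac2, an adaptor of L-type channels, by 0.58 ± 0.161, and Rims2, of the active zone, by 0.22 ± 0.0637. The 1 partner that rose was Rest, named after its value was seen, at 56.7 to 81.9 CPM against 45.4 to 71.6 CPM (0.31 ± 0.0932, adjusted p = 0.0251). With fluoxetine none of the 28 partners tested on day 7 and none of the 29 tested on day 13 was called.

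**Figure D5:**
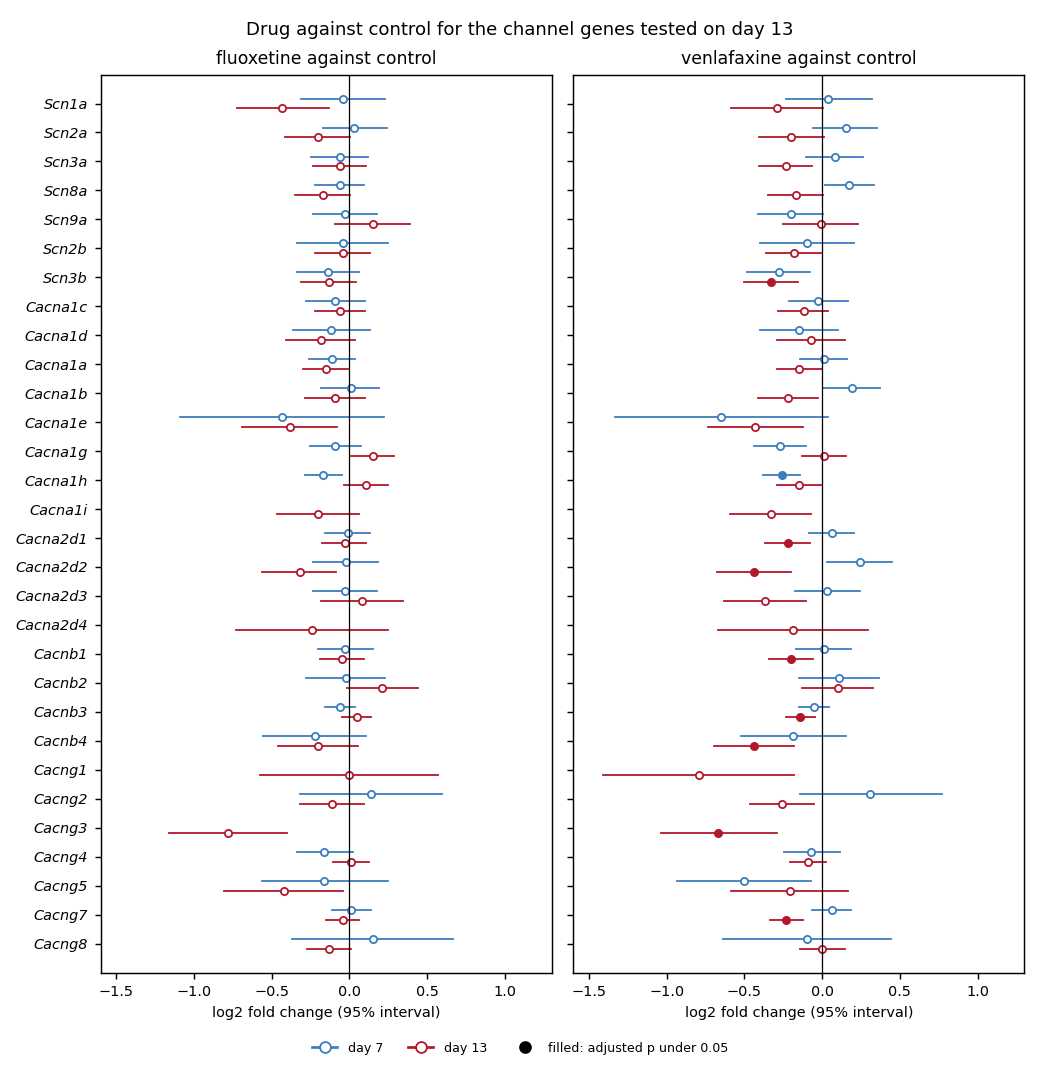
Log2 fold change against untreated cultures of the same day (points) with 95% intervals (lines) for 30 of the channel genes tested on day 13, with fluoxetine on the left and venlafaxine on the right, day 7 in blue and day 13 in red. Filled points passed the test: none with fluoxetine, Cacna1h on day 7 and 8 genes on day 13 with venlafaxine.

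The drugs were also compared with each other, with each at its own concentration. On day 7 no channel gene differed, against 0.147% of all tested genes. An unadjusted p under 0.05 was held by 5 of 30, against 1307 of all 15601 tested genes, and DESeq2 called none. Scn7a (0.65 ± 0.197), Scn8a (-0.24 ± 0.0806) and Cacna2d2 (-0.26 ± 0.107) had small p-values, with adjusted p from 0.231 to 0.461. On day 13, 4 of 32 genes were higher with fluoxetine than with venlafaxine and none lower, where 12.1% of all tested genes were called and 5.14% higher. Cacna1h measured 153 to 188 CPM with fluoxetine (median 176) and 119 to 175 CPM with venlafaxine (147), and 7 of 7 fluoxetine libraries lay over the venlafaxine median (0.26 ± 0.0722, adjusted p = 0.0287). Cacna2d3 measured 63.3 to 96.2 against 41.4 to 73.2 CPM (0.45 ± 0.136, adjusted p = 0.0379), Cacnb3 122 to 143 against 104 to 131 CPM (0.19 ± 0.0484, adjusted p = 0.0219), and Cacng7 106 to 122 against 89.0 to 115 CPM (0.19 ± 0.0546, adjusted p = 0.0344). None of the 4 was called without the farthest library of each group (replicates 4, 5 and 1 of the untreated, fluoxetine and venlafaxine groups). Of the partners, Cabp1, Rims2 and Rem2 were higher and Rest lower with fluoxetine.

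Whether a drug acted differently on day 13 than on day 7 was tested as an interaction over the 42 libraries of both days. For fluoxetine no channel gene of 34 differed, against 0.277% of all tested genes, and DESeq2 called none. An unadjusted p under 0.05 was held by 3 of the 34, against 2200 of all 16964 tested genes. Cacna1h (0.28 ± 0.0979, adjusted p = 0.178) and Cacna1g (0.24 ± 0.115, adjusted p = 0.367) were among these 3 by edgeR, and Cacna2d2 (-0.29 ± 0.175, adjusted p = 0.490) was not. For venlafaxine 3 of 34 differed, 1 upward and 2 downward, against 12.4% of all tested genes, 7.53% upward and 4.89% downward. Cacna2d2 differed by -0.67 ± 0.174 (adjusted p = 0.0106), with medians of 15.9 CPM against 13.7 CPM on day 7 and 59.5 CPM against 73.2 CPM on day 13. Cacng7 differed by -0.28 ± 0.0895 (adjusted p = 0.0311), with medians of 52.3 against 51.4 CPM and 101 against 122 CPM. The call of Cacng7 was lost without a filter on low counts (adjusted p = 0.0637 by edgeR) and in a fit of the compared groups alone (adjusted p = 0.0508), at the same difference of -0.28. Cacna1b had the next smallest p and was not called (-0.40 ± 0.146, adjusted p = 0.0637). Of the partners, Calm2, Calm3 and Rims2 were lower and Rest higher on day 13 relative to day 7.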

How the data were processed

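The data were deposited gene counts of 49 libraries in 1 table. The tools named for them, per the submitters' processing notes, were featureCounts 1.6.1, STAR 2.6.0b, FastQC 0.11.5 and bcl2fastq 2.19.0.316, with build GRCm38.p6. No source used here gives the annotation release, the strand setting or the handling of multiply mapped reads, so paralogs may share reads. Groups came from the labels. Counts were fitted with edgeR 4.0.16 (limma 3.58.1, R 4.3.3; TMM, filterByExpr, robust quasi-likelihood F test) over all genes, with the 3 groups of a day, the 3 control groups, or the 42 libraries of days 7 and 13 in 1 fit. A call needed an adjusted p (Benjamini-Hochberg) under 0.05. SE is the log2 fold change over the root of F. Exon lengths came from GENCODE vM21, with the same coordinates for 39 of the 40 genes. The fits were tested on simulated data. Alternatives included DESeq2 1.42.0. The genes, marker lists and partner list were chosen with earlier results of these data known. Values are given for each gene called under a drug, for the 4 with the smallest p where fewer than 4 were called, for the 3 of highest day 13 level per role, for those that fell, and for up to 5 partners per comparison. Results for 2 of the genes are not reported here, though the counts over all genes include them.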

Additional observations from a re-analysis of the deposited data

Results flagged for a closer look

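Among 179 gene and group combinations with a median of at least 1 CPM, 3 held a library far from the other 6 of its group, and chance gives about 1 in 20. Cacna1e was at 5.09 CPM in replicate 5 of the untreated day 7 group, where the others measured 0.758 to 1.91 CPM. Cacna1c was at 5.67 CPM in replicate 5 of the venlafaxine day 7 group, with the others at 7.56 to 8.88 CPM. Scn8a was at 44.3 CPM in replicate 8 of that group, with the others at 30.6 to 34.8 CPM.

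The venlafaxine effect differed between days by the interaction test of edgeR with Benjamini-Hochberg adjustment. For Cacna2d2 the effect on day 13 minus that on day 7 was -0.67 and for Cacng7 -0.28 on the log2 scale. Cacna2d2 passed the test under each alternative run, and the Cacng7 call was lost without a count filter, in a fit of the compared groups alone and in a fit blocked by replicate number.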

How the results depend on the processing

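Among the named genes, no fold change that was called in the report or in an alternative run changed sign. The untreated course gave 29 to 34 channel genes called in either interval, and the fluoxetine comparison on day 7, the comparison of the drugs on day 7 and the fluoxetine difference between days gave 0 under each alternative. With DESeq2 the count was 2 for venlafaxine on day 7 (1 in the report, Cacna1g added), 2 for fluoxetine on day 13 (0 in the report) and 6 for the venlafaxine difference between days (3 in the report). A fit over all 49 libraries gave 2 for fluoxetine and 14 for venlafaxine on day 13 (9 in the report), and 5 for the venlafaxine difference between days. Without a count filter, which adds genes to the adjustment, venlafaxine on day 13 gave 3 (Scn3b, Cacng3 and Cacng7) and fluoxetine against venlafaxine 1 (Cacnb3, of 4 in the report). Without the farthest library of each group, venlafaxine on day 7 and fluoxetine against venlafaxine on day 13 gave 0, and venlafaxine on day 13 gave 12, without Cacnb3. Fits of the compared groups alone gave 6 for venlafaxine on day 13. Counts over all genes moved more: venlafaxine on day 13 called 3753 genes and 2022 without a filter, and fluoxetine on day 13 called 19, against 423 with DESeq2 and 575 over all 49 libraries. Where a setting changed a count by more than its construction shows, the cause was not tested. Lengths of the longest transcript moved the level per kb of 21 genes beyond the spread between libraries.

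Libraries of the same replicate number were not treated as pairs. In none of 8 group pairs did every same-numbered pair of libraries correlate over 0.1, with r from -0.464 to 0.242. This rule cannot exclude partial pairing: fluoxetine and venlafaxine of day 13 had a median r of 0.114, with 3 of 6 pairs over 0.1. With the replicate number as a block, venlafaxine on day 13 gave 0 channel genes and 282 genes in all, fluoxetine against venlafaxine on day 13 gave 1 (Cacna1h), and the venlafaxine difference between days gave 2, without Cacng7 (adjusted p = 0.0501 by edgeR). Depth limits the low genes: on day 7 Cacng1 rested on at most 30 counts a group, Cacng3 on at most 11 and Scn7a on 69 to 124.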
